A study of Homo sapiens with 12 samples.

Results

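PLG, PLGLA and HABP2 are 3 of the 14884 named genes measured on 12 expression arrays of HepG2 cells. PLG encodes plasminogen, PLGLA is a transcribed pseudogene copied from it, and HABP2 encodes a plasma serine protease also known as factor VII activating protease. The 3 genes were chosen by name because of the size of their differences on these same arrays, so their levels and differences are given as a description, without a test. The signal of the PLG and PLGLA probe sets may be shared, since PLGLA is a copy of PLG, but their sequences were not compared here.

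HepG2 cells grow from a human tumour of the liver and are an established line. Their β-catenin gene lacks exon 3 on 1 allele, so they make a truncated protein, without the sites that control its turnover, beside the full-length one. The cells were transfected with sißCat-WT, a small interfering RNA against the full-length form, with sißCat-mut against the truncated form, with sißCat-both against both forms, or with the control RNA siCtrl. RNA was taken at 120 h, with 3 arrays per group. All 4 groups share the HepG2 background and its exon 3 deletion, and the result for each form rests on 1 siRNA label. The comparisons address the part of each form in transcription. The level of the targeted gene was not analysed here, which leaves the knockdown itself unchecked.

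Plasminogen is an inactive zymogen made by hepatocytes and released into plasma. Tissue and urokinase activators cut it to plasmin, the protease that dissolves fibrin clots. Receptors and fibrin hold plasminogen through its kringle domains, which bind lysine residues, and inhibitors of the activators, plasmin inhibitors and the carboxypeptidase CPB2 limit the reaction. HABP2 is another kringle-bearing zymogen from the liver. It binds hyaluronan and can cut factor VII and the urokinase precursor in purified systems.

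The 3 genes lie on 3 chromosomes in the RefSeq table of GRCh38.p14: PLG on chromosome 6, PLGLA on chromosome 2 and HABP2 on chromosome 10. Each was measured by 1 probe set, with identifiers 17014459 for PLG, 16883938 for PLGLA and 16709367 for HABP2. The chromosome 2 copy PLGLB1, a protein-coding relative of plasminogen, was also measured, while PLGLB2 was not among the genes named here. The promoter table holds windows for PLG, HABP2, PLGLB1 and PLGLB2, and PLGLA is the member without an entry. The stretch before the first listed start of PLG is shown beside the matching stretch of PLGLB1, because it lets the closeness of these copies be seen. It does not show how close PLGLA is. Capitals mark the bases that differ between the pair, both read 5′ to 3′ from RefSeq (GRCh38.p14), PLG from chr6:160701994-160702192 on the plus strand and PLGLB1 from chr2:87021896-87022094 on the minus strand.
PLG: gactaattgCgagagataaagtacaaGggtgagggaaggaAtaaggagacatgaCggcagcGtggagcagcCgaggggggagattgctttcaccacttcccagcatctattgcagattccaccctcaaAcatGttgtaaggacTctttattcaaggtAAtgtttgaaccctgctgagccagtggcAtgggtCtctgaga
PLGLB1: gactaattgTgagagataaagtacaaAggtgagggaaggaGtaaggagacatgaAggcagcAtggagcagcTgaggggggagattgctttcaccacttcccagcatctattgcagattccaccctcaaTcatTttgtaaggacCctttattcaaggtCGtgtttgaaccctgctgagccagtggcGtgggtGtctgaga
The pair shared 186 of 199 aligned bases, an identity of 93.5%. PLG and PLGLB2 shared 194 of 205 aligned bases, or 94.6%.

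The HABP2 window before its first listed start is shown because this gene had the highest difference of all genes from siCtrl after sißCat-mut and after sißCat-both. It was read from RefSeq (GRCh38.p14, chr10:113550581-113550830, plus strand), and capitals mark a match to the HNF4 half-site searched.
HABP2: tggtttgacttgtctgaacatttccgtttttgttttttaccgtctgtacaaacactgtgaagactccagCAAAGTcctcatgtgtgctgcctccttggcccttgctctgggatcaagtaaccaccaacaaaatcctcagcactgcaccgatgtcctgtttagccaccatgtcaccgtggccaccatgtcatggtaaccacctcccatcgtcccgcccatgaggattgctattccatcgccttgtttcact
The letters searched on both strands of the 250 bases before each start were CTTTGAT for TCF/LEF factors, GTTAAT for a half-site of HNF1 and CAAAGT for a half-site of HNF4. The TCF/LEF and HNF4 letters can overlap, and no matches overlapped in these windows. They occur in 2.26%, 6.23% and 10.3% of the 35116 promoter windows of the table, in that order. The first HABP2 window held CAAAGT at 181 to 176 bases before the start. The second HABP2 window held CAAAGT at 128 to 123 bases and GTTAAT at 56 to 51 bases before its start. For PLG, 1 of 2 windows held the HNF1 letters, on the minus strand at 46 to 41 bases before the start, and PLGLB1 held them at the same place. CTTTGAT was in none of these windows.

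PLG differed in opposite directions between the knockdowns of the single forms. Its log2 intensity was 5.54, 4.77 and 5.19 on the 3 sißCat-WT arrays. It was 8.59, 8.46 and 8.47 after sißCat-mut and 7.68, 7.49 and 8.22 after sißCat-both. The siCtrl arrays gave 6.75, 6.65 and 7.07. The sißCat-WT arrays were thus all below the siCtrl arrays, the arrays of the other 2 knockdowns were all above them, and none of the 4 groups overlapped another. The means ± SD were 8.50 ± 0.075 after sißCat-mut, 7.80 ± 0.38 after sißCat-both and 5.17 ± 0.38 after sißCat-WT, against 6.82 ± 0.22 after siCtrl (n = 3 each).

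Against siCtrl the log2 difference of PLG was -1.66 ± 0.19 after sißCat-WT, 1.68 ± 0.19 after sißCat-mut and 0.97 ± 0.19 after sißCat-both (SE of the fit across all genes, n = 3 arrays per group). These 3 comparisons share the siCtrl arrays. The first is the fifth lowest of the 14884 genes. Levels near the array medians over all probe sets, which were 4.71 to 4.78, lie close to the floor of the array, where differences are compressed. The sißCat-WT level of PLG is close to it. Between the knockdowns, PLG was higher after sißCat-mut than after sißCat-WT by 3.34 ± 0.19, and the sißCat-both minus sißCat-mut difference was -0.71 ± 0.19.

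PLGLA followed PLG closely. Its log2 intensity was 5.21, 4.55 and 5.25 after sißCat-WT, 8.31, 8.28 and 8.07 after sißCat-mut, and 6.94, 7.25 and 7.68 after sißCat-both. The siCtrl arrays gave 6.74, 6.52 and 7.15. The sißCat-both and siCtrl arrays overlapped, while the sißCat-WT arrays lay below all others and the sißCat-mut arrays above all others. The log2 differences against siCtrl were -1.80 ± 0.21 after sißCat-WT, 1.41 ± 0.21 after sißCat-mut and 0.48 ± 0.21 after sißCat-both (SE, n = 3 arrays per group). The last value was 0.29 without sißCat-both replicate 3. The sißCat-mut minus sißCat-WT difference was 3.21 ± 0.21.

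**Figure D1:**
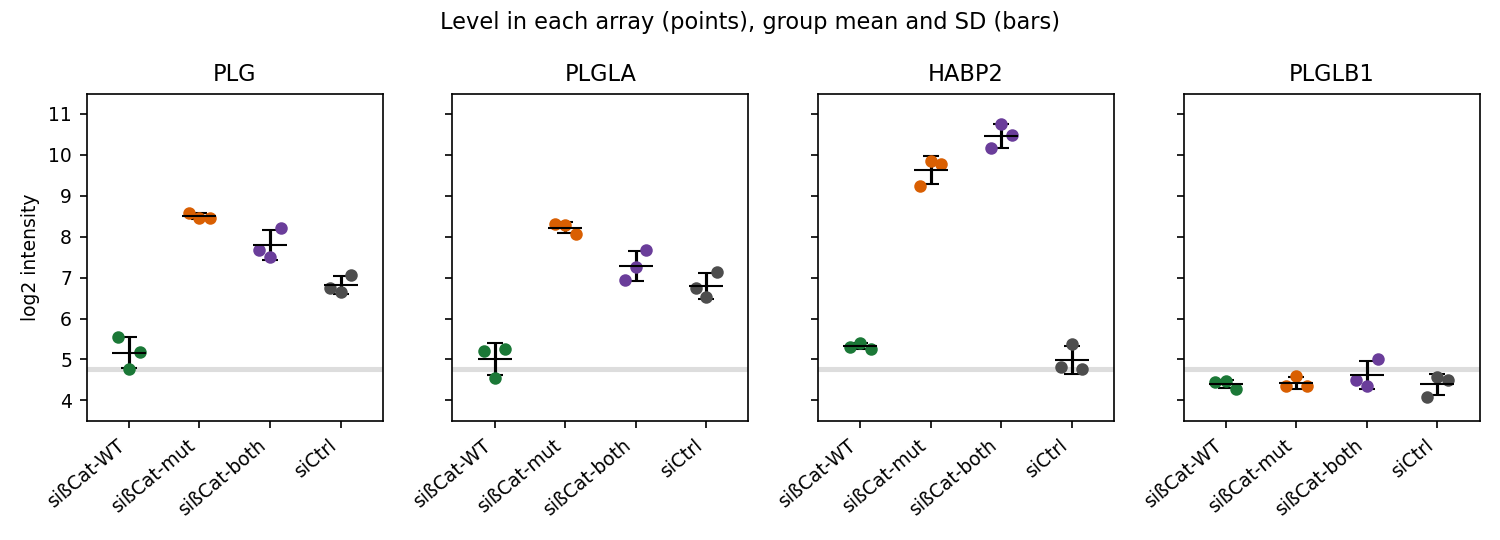
Log2 intensity of PLG, PLGLA, HABP2 and the copy PLGLB1 (vertical axis) in the 4 siRNA groups (horizontal axis), with 1 point per array, the group mean as a dash, the SD as a bar (n = 3) and the range of the array medians over all probe sets in grey. PLG and PLGLA are lowest after sißCat-WT and highest after sißCat-mut, HABP2 is high after sißCat-mut and sißCat-both, and PLGLB1 stays between 4.09 and 5.01 in all arrays.

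Within groups the PLG and PLGLA probe sets also moved together. In 11 of 12 arrays they lay on the same side of their own group means, and their deviations from those means differed by at most 0.26. In sißCat-WT replicate 2 PLG was 0.40 and PLGLA 0.45 below its group mean (deviations of -0.40 and -0.45). In sißCat-both replicate 3 they were above by 0.42 and 0.39. For PLG and PLGLB1 the signs matched in 7 of 12 arrays, and for PLG and HABP2 in 3 of 12. Replicate 2 was the lowest PLG array and the highest HABP2 array in every group. The 3 deviations of a group cancel out, so the 12 signs are not separate observations. The share over other gene pairs was not computed. Probe sequences were not used here, so signal of the gene and signal of the pseudogene cannot be told apart.

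PLGLB1 was close to the floor of the array in every group. It had 4.44, 4.46 and 4.29 after sißCat-WT, 4.35, 4.59 and 4.35 after sißCat-mut, 4.50, 4.34 and 5.01 after sißCat-both, and 4.09, 4.56 and 4.51 after siCtrl. All 4 groups overlapped, and it passed the test in none of the 3 comparisons with siCtrl (limma adjusted p = 0.982, 0.896 and 0.32 after sißCat-WT, sißCat-mut and sißCat-both).

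**Figure D2:**
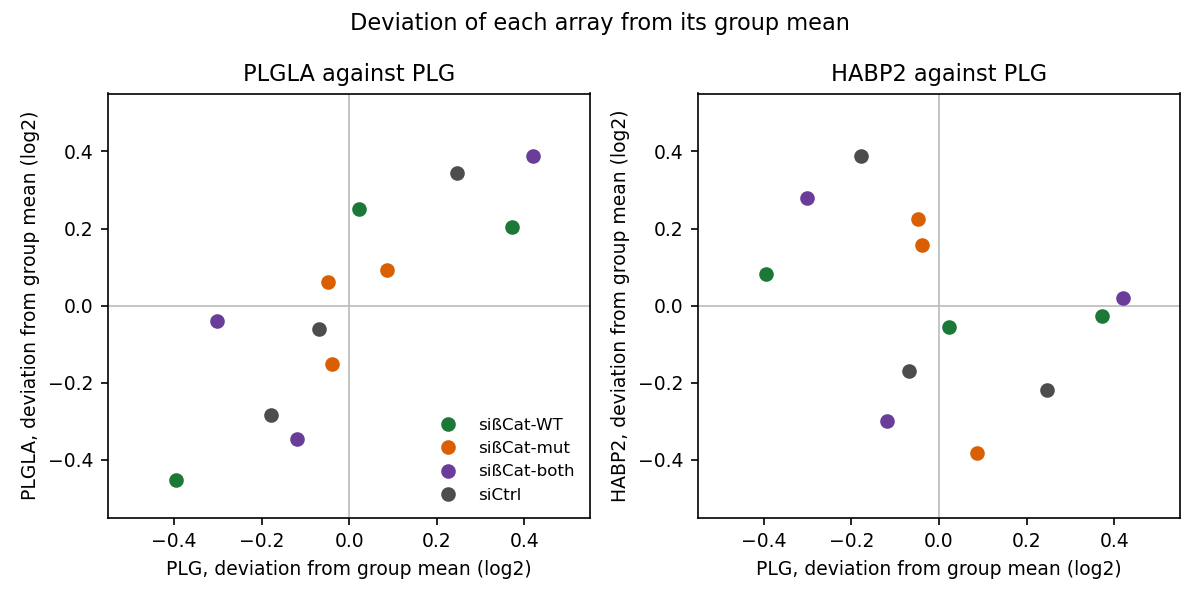
Deviation of each of the 12 arrays from its group mean on the log2 scale, for PLGLA (left) and HABP2 (right) on the vertical axis against PLG on the horizontal axis, with groups in colour. PLG and PLGLA share the sign in 11 of 12 arrays, PLG and HABP2 in 3 of 12. The signs within a group are not separate observations.

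HABP2 was low in the 2 groups that kept the truncated form untargeted and high in the other 2. Its log2 intensity was 5.29, 5.40 and 5.27 after sißCat-WT, 9.25, 9.86 and 9.79 after sißCat-mut, and 10.17, 10.75 and 10.49 after sißCat-both. The siCtrl arrays gave 4.82, 5.37 and 4.77. The sißCat-WT and siCtrl arrays overlapped and lay near the floor of the array, and the sißCat-both arrays lay above all sißCat-mut arrays. The means ± SD were 10.47 ± 0.29 after sißCat-both, 9.63 ± 0.33 after sißCat-mut, 5.32 ± 0.072 after sißCat-WT and 4.99 ± 0.34 after siCtrl (n = 3 each).

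The log2 difference of HABP2 against siCtrl was 0.34 ± 0.19 after sißCat-WT, 4.65 ± 0.19 after sißCat-mut and 5.48 ± 0.19 after sißCat-both (SE, n = 3 arrays per group). The last 2 were each the highest of the 14884 genes. The first was 0.53 without siCtrl replicate 2 and 0.23 without siCtrl replicate 3. Because the siCtrl level is near the floor, no fold is given. The sißCat-both minus sißCat-mut difference of HABP2 was 0.84 ± 0.19, whereas that of PLG was below 0.

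Of the 3 genes, 2 had all sißCat-WT arrays below all siCtrl arrays (PLG and PLGLA), against 14.8% of all genes, and 0 had them all above, against 15.5%. All 3 had sißCat-mut arrays entirely above siCtrl, against 20.0% of all genes. PLG and HABP2 were entirely above siCtrl after sißCat-both, against 20.7%. All 3 had sißCat-mut arrays entirely above sißCat-WT arrays, against 20.2%. The choice of genes fixed these counts, and nothing is read from them.

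The sißCat-both minus sißCat-WT difference can be set beside the sißCat-mut minus siCtrl difference. The siRNA labels may differ in strength and off-target effects, which were not analysed. Such differences cannot be told apart from the part of each form. For PLG the first difference was 2.63 ± 0.19 and the second was 1.68 ± 0.19. The departure from additivity, the first minus the second, was 0.95 ± 0.28 for PLG, 0.87 ± 0.30 for PLGLA and 0.50 ± 0.26 for HABP2 (SE). These values include levels near the floor (HABP2 after sißCat-WT and siCtrl, PLG and PLGLA after sißCat-WT), where differences are compressed, so neither their size nor their sign is read.

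The other genes of the plasminogen system were taken from a list of activators, receptors, inhibitors, substrates and relatives. Of its 31 genes besides PLG and PLGLA, 16 were measured, and they were tested in the fit over all 14884 genes with a call at an adjusted p under 0.05. The urokinase and tissue activator genes, their main inhibitors and the plasmin inhibitor gene were not among the genes named here. Nothing in the labels says that the triplicates were grown separately. The p-values therefore take in no more than the spread of these arrays, which may be technical.

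After sißCat-WT, 7 of the 16 genes fell and 0 rose, where 4.97% of all genes fell and 5.20% rose. F11, the zymogen of the contact pathway of clotting, fell by 1.24 ± 0.10 on the log2 scale, and CPB2, the carboxypeptidase that protects fibrin from plasmin, fell by 0.79 ± 0.09 (SE, n = 3 arrays a group, adjusted p = 1.11e-05 and 0.000132 in limma). The fibrinogen chains FGG, FGA and FGB, whose polymer is the substrate of plasmin, fell by 0.67, 0.63 and 0.41 (adjusted p = 0.000117, 0.000293 and 0.0115). The call of FGB ended without sißCat-WT replicate 2 (adjusted p = 0.0524, and 0.00158 to 0.0524 over all alternatives). VTN, the matrix protein vitronectin that stabilises the activator inhibitor, fell by 0.57 and S100A10, a subunit of a cell-surface plasminogen receptor, by 0.42. The median difference of the 16 genes was -0.25, against 0.0054 over all genes.

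After sißCat-mut, 10 of the 16 genes rose and 1 fell, where 12% of all genes rose and 13.6% fell. KNG1, the kininogen gene whose product assembles the contact system, rose by 3.88 ± 0.11 (SE, n = 3 arrays a group, adjusted p by limma = 1.27e-10). That value is from the brighter of its probe sets, and the other stayed between 6.13 and 6.52 in all 12 arrays. VTN rose by 1.33, HRG, a plasma glycoprotein that binds plasminogen, by 1.32, FGB by 1.11 and F12, the gene of the zymogen factor XII, by 1.02. F11 rose by 0.86 and FGA by 0.52. HRG stood near the floor in siCtrl, at 3.66 ± 0.15 (SD, n = 3). CPB2 was the gene that fell, by 0.71 ± 0.09 (adjusted p = 6.32e-05). The median difference of the list was 0.40, against 0.011 over all genes.

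After sißCat-both, 9 of the 16 genes rose and 2 fell, where 15.5% of all genes rose and 18.1% fell. KNG1 rose by 4.76, HRG by 2.34, F11 by 1.45, VTN by 1.40, FGB by 1.27 and F12 by 0.94, with limma adjusted p from 8.39e-12 for KNG1 to 0.000243 for F12. CPB2 fell by 0.77 ± 0.09, and ANXA2, the partner of S100A10 in the plasminogen receptor, fell by 0.61 ± 0.12 (SE, n = 3 arrays per group, adjusted p = 1.84e-05 and 0.000834). The median difference of the list was 0.44, against -0.0062 over all genes.

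CPB2 was therefore lower in all 3 knockdowns, unlike PLG. Its log2 intensity was 10.41, 10.15 and 10.19 after sißCat-WT, 10.39, 10.40 and 10.21 after sißCat-mut, and 10.42, 10.22 and 10.18 after sißCat-both, against 11.04, 11.02 and 11.05 after siCtrl. No knockdown array reached the lowest siCtrl array. The 3 knockdown groups overlapped one another and share the same siCtrl arrays, so a shift of siCtrl alone cannot be told apart from 3 falls. F11 had the order of PLG for the single knockdowns, at 7.57, 7.29 and 7.49 after sißCat-WT and 9.50, 9.60 and 9.56 after sißCat-mut, against 8.65, 8.67 and 8.77 after siCtrl. It was highest after sißCat-both, at 10.15 ± 0.18 (mean ± SD, n = 3).

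**Figure D3:**
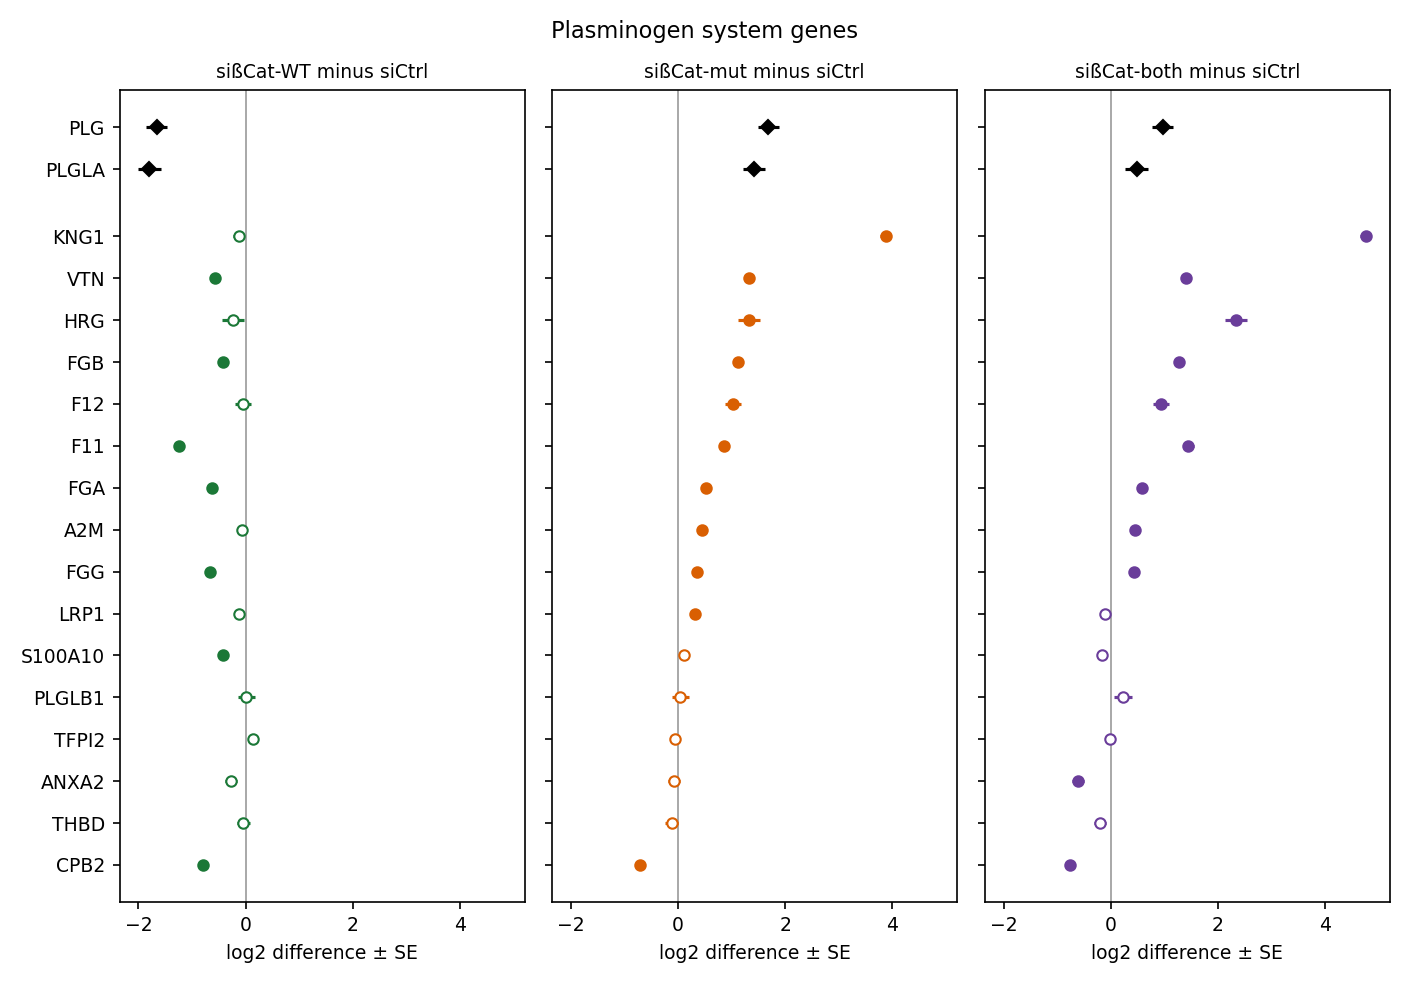
Log2 difference from siCtrl with its SE (horizontal axes, n = 3 arrays per group) for PLG and PLGLA (black diamonds, not tested) and 16 other plasminogen system genes (circles, filled where the adjusted p was under 0.05), with 1 panel per knockdown. After sißCat-WT the filled circles are all left of 0, and CPB2 is left of 0 in all 3 panels.

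Between sißCat-mut and sißCat-WT, which share no arrays with each other, 11 of the 16 genes were higher after sißCat-mut and 0 were lower, where 14% of all genes were higher and 17.0% lower. F11 was higher by 2.10 ± 0.10 and VTN by 1.90 ± 0.08 (SE, n = 3 arrays a group, adjusted p by limma = 5.11e-09 and 3.01e-09). The median difference was 0.78, against 0.0013 over all genes. PLG and PLGLA, with 3.34 and 3.21, lay above each of the 16 except KNG1.

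The surroundings of HABP2 were taken from a list of proteases that activate hepatocyte growth factor, reported HABP2 substrates and inhibitors of such proteases. Of 22 genes besides HABP2, 11 were measured. After sißCat-WT 1 of the 11 fell and 0 rose, where 4.97% of all genes fell and 5.20% rose. The gene was F7, which encodes factor VII and fell by 0.45 ± 0.13 (SE, n = 3 arrays a group, adjusted p by limma = 0.0388). Its call ended without any one siCtrl or sißCat-WT array, without sißCat-mut replicate 1 and with all probe sets in the fit (adjusted p = 0.00904 to 0.134 over all alternatives).

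After sißCat-mut 5 of the 11 rose and 0 fell, where 12% of all genes rose and 13.6% fell. Beside KNG1 they were HGFAC, the activator of hepatocyte growth factor and a relative of HABP2, with 0.86 ± 0.12, F7 with 0.62 ± 0.13, TFPI, which blocks the tissue factor pathway, with 0.59 ± 0.09, and HPN, the membrane protease hepsin, with 0.33 ± 0.07 (SE, n = 3 arrays a group, adjusted p by limma = 0.000166, 0.00216, 0.000191 and 0.00363). After sißCat-both 2 of the 11 rose and 1 fell, counts near or below those of all genes (15.5% rose and 18.1% fell). HGFAC rose by 0.64 and TFPI fell by 0.44 (adjusted p = 0.00109 and 0.0011). Outside KNG1 the largest of these differences was thus 0.86, beside 4.65 and 5.48 for HABP2.

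HGFAC had 6.46, 6.03 and 6.36 after sißCat-WT and 7.34, 7.42 and 7.43 after sißCat-mut, against 6.67, 6.36 and 6.57 after siCtrl. After sißCat-both it averaged 7.17 ± 0.20 (SD, n = 3). Its sißCat-mut and sißCat-both arrays were all above its siCtrl arrays. TFPI had 9.53, 9.39 and 9.45 after sißCat-mut and 8.36, 8.47 and 8.47 after sißCat-both, against 8.78, 8.89 and 8.95 after siCtrl, so the 2 knockdowns lay on opposite sides of siCtrl without overlap.

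A wider list of plasma serine proteases of the liver and their close homologues held 22 genes besides PLG and HABP2, of which 16 were measured. The lists overlap, so their counts are not separate. F11 and F12 are also in the plasminogen system list, F7, HGFAC and HPN are also in the HABP2 list, and KNG1 is in both of those. After sißCat-WT 8 of them fell and 0 rose, where 4.97% of all genes fell and 5.20% rose. Their median difference was -0.25, against 0.0054 over all genes. F11 and HP, the haptoglobin gene and a protease homologue without activity, had the largest of these falls at 1.24 and 1.21, followed by MASP1 (0.84), HPR (0.75), MASP2 (0.69), F7 (0.45), C2 (0.43) and F2 (0.25). MASP1, MASP2 and C2 are proteases of complement, and F2 is prothrombin. The call of F2 (limma adjusted p = 0.0372) ended in 7 of 22 alternatives (adjusted p = 0.0047 to 0.142), namely without sißCat-WT replicate 2 or 3, sißCat-mut replicate 2 or any one siCtrl array, and with all probe sets.

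After sißCat-mut 14 of the 16 rose and 0 fell, where 12% of all genes rose and 13.6% fell. Their median difference was 0.66, against 0.011 over all genes. MASP1 rose by 1.59, C2 by 1.12, F12 by 1.02, HGFAC and F11 by 0.86, MASP2 by 0.80, F9 by 0.75 and F10 by 0.69. The call of F9, near the floor at 4.15 ± 0.17 after sißCat-mut and 3.40 ± 0.21 after siCtrl (SD, n = 3), ended in 5 of 21 alternatives, namely without sißCat-mut replicate 1 or 2 or siCtrl replicate 2 or 3, and with all probe sets (adjusted p = 0.0313, and 0.00205 to 0.121 over them). After sißCat-both 10 of the 16 rose and 1 fell, where 15.5% of all genes rose and 18.1% fell. Their median difference was 0.55, against -0.0062 over all genes. F9 rose by 1.74, HPR by 1.63, F11 by 1.45, C2 by 1.17, MASP1 by 1.03, F12 by 0.94, HGFAC by 0.64 and HP by 0.63 (limma adjusted p from 1.3e-07 for F11 to 0.00676 for HP, n = 3 arrays per group).

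**Figure D4:**
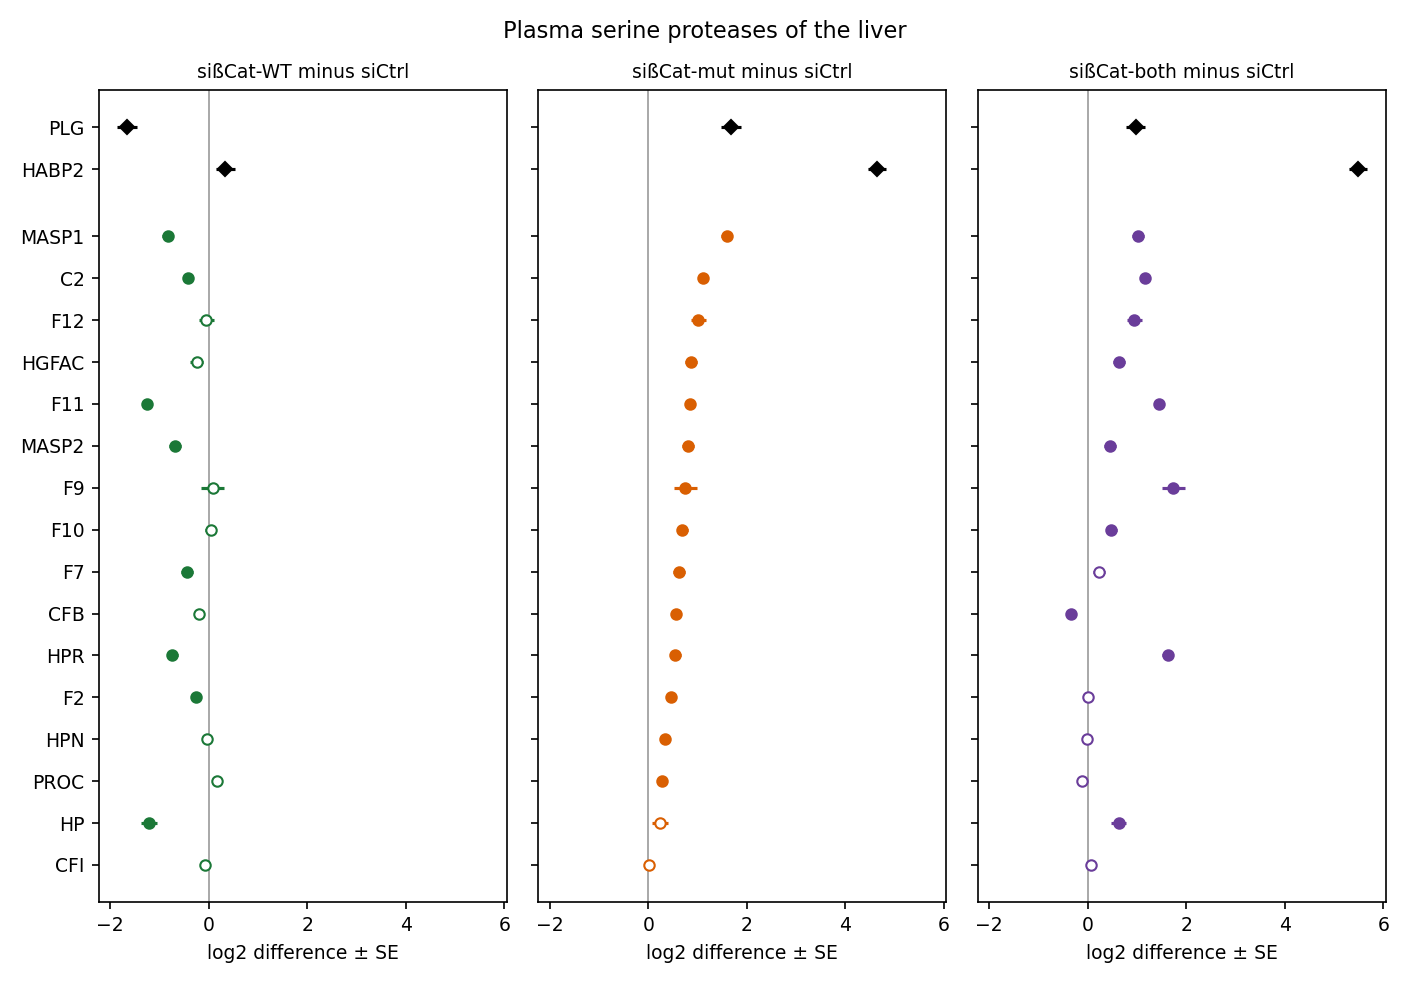
Log2 difference from siCtrl with its SE (horizontal axes, n = 3 arrays per group) for PLG and HABP2 (black diamonds, not tested) and 16 other plasma serine proteases or homologues (circles, filled where the adjusted p was under 0.05), with 1 panel per knockdown. PLG lies left of every other gene after sißCat-WT, and HABP2 lies right of every other gene after sißCat-mut and sißCat-both.

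The genes whose pattern was closest to PLG were found by the root mean square difference over the 12 arrays, after each gene's own mean was subtracted. They were UNC93A at 0.21, PLGLA at 0.23, LEAP2, a liver peptide hormone, at 0.36, MASP1 at 0.40 and TFR2, the second transferrin receptor, at 0.41. UNC93A had log2 differences against siCtrl of -1.54 after sißCat-WT, 1.48 after sißCat-mut and 0.77 after sißCat-both. Those of LEAP2 were -1.31, 1.63 and 1.62 and those of TFR2 were -0.99, 1.32 and 1.20 in the same order. UNC93A was at 0.22 from PLGLA.

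The genes closest to HABP2 were KNG1 at 0.40, FETUB, a plasma protease inhibitor of the cystatin family, at 0.55, the transcription factor SNAI2 at 0.65, and the pyrimidine enzymes DPYD at 0.85 and CDA at 1.03. After sißCat-WT, sißCat-mut and sißCat-both, CDA differed from siCtrl by 0.04, 2.61 and 3.29 and FETUB by -0.54, 3.34 and 4.67. In all 5 the sißCat-both mean was above the sißCat-mut mean, as for HABP2. These genes were picked by their values, so no test was made.

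**Figure D5:**
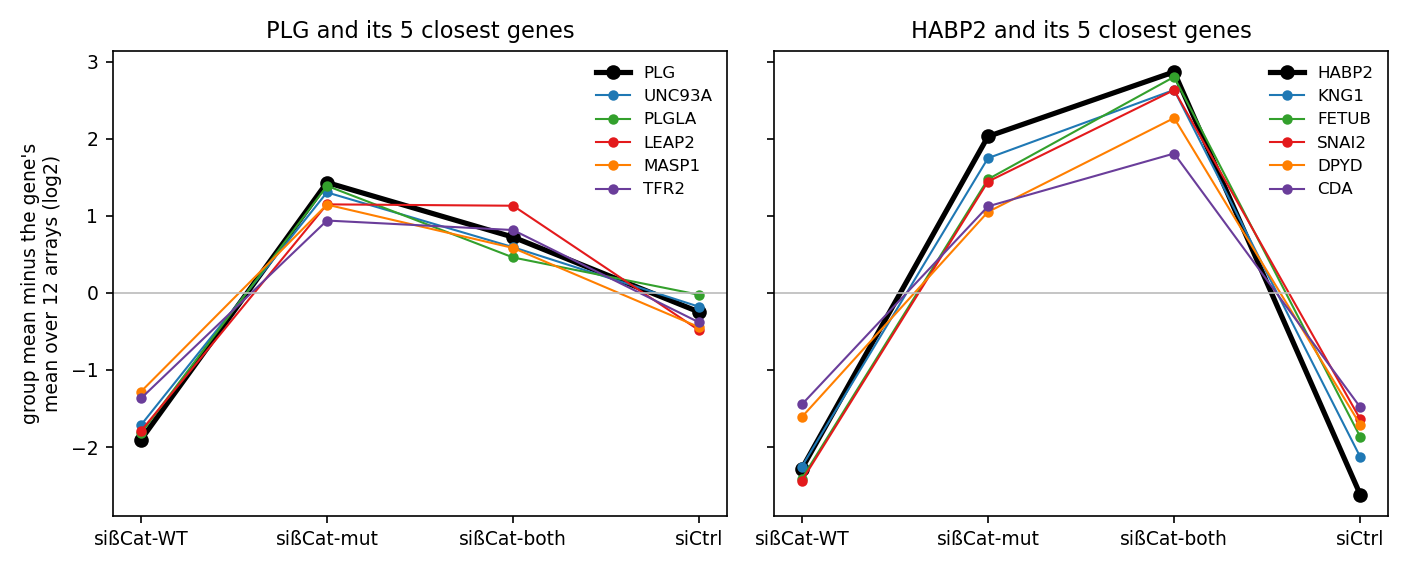
Group mean minus the gene's own mean over the 12 arrays on the log2 scale (vertical axis) in the 4 groups (horizontal axis) for PLG (left, black) and HABP2 (right, black), each with its 5 closest genes, and lines only to guide the eye. The PLG set peaks after sißCat-mut or is level between sißCat-mut and sißCat-both, and the HABP2 set peaks after sißCat-both.

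The 10 measured genes nearest to each member on its chromosome, 5 on each side in the RefSeq table (GRCh38.p14), were tested in the same fit, with counts read against the shares of all genes above. The gaps from PLG to its measured neighbours were 237.7 to 4525.6 kb, so its immediate surroundings were not covered. Around PLG 2 neighbours rose and 0 fell after sißCat-WT, where 5.20% of all genes rose and 4.97% fell. The 2 neighbours were IGF2R at 0.38 ± 0.08 and CHP1P2 at 0.36 ± 0.09 (SE, n = 3 arrays a group, adjusted p by limma = 0.00873 and 0.0153). The gaps of IGF2R and CHP1P2 from PLG were 590.7 and 606.0 kb. CHP1P2 starts after IGF2R and ends before it, so it lies within that gene. The 2 are thus 1 locus and may not be separate observations. After sißCat-mut 0 neighbours of PLG rose and 1 fell. Around HABP2 1 rose and 1 fell after sißCat-mut, ACSL5, which activates fatty acids, by 0.57 and the DNA repair gene DCLRE1A, which fell by 0.55 (adjusted p = 0.000157 and 0.000444). The gaps of ACSL5 and DCLRE1A from HABP2 were 1122.5 and 245.1 kb. The neighbour with the largest difference was FHL2, at a gap of 943.6 kb from PLGLA, which fell by 0.96 after sißCat-mut and 1.29 after sißCat-both.

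The correlation between replicate arrays, over genes, was 0.994 to 0.997, with 0 identical pairs. Of 10 hepatocyte markers 7 were measured (ALB, AFP, APOA1, APOB, TTR, TF and AHSG), with levels from 9.24 to 13.56 in all arrays. The sum of their log2 levels ranged from 84.6 to 85.2 after sißCat-WT, 89.3 to 89.7 after sißCat-mut, 88.9 to 89.0 after sißCat-both and 85.7 to 86.2 after siCtrl, so it moved with the groups, and its part in the differences of PLG and HABP2 was not tested. In bulk RNA, fewer cells of a kind and less RNA per cell cannot be told apart. The 4 measured endothelial markers lay between 3.42 and 4.94, the fibroblast marker THY1 between 5.17 and 5.73 and the macrophage marker CD163 between 3.05 and 3.67. LYZ (lysozyme), listed as a leukocyte marker and measured here by the brighter of 2 probe sets, was high throughout, at 12.68 ± 0.007 after sißCat-WT, 12.34 ± 0.04 after sißCat-mut, 11.60 ± 0.21 after sißCat-both and 12.72 ± 0.04 after siCtrl (SD, n = 3).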

How the data were processed

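RNA of HepG2 cells was labelled with biotin and measured on Affymetrix arrays, as the labels' protocols state. What was deposited are log2 intensities for 53617 probe sets, which the authors computed by RMA, with Affymetrix Expression Console 1.1 named in the submitters' processing notes. RMA equalises the distributions of the arrays, which takes out any shift common to most genes. The log2 scale was inferred from the values, and the annotation build is not given in the sources used here. The number of arrays limits the precision.

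Probe sets were named through the platform annotation: 16098 had 1 symbol, 0 had several and 37519 were unnamed. The probe set with the highest mean was kept for each of 14884 genes. Group means were fitted with limma 3.58.1 (R 4.3.3, lmFit and eBayes, 8 residual degrees of freedom), two-sided, with Benjamini-Hochberg adjustment over all genes within each of 7 contrasts. The steps were tested on simulated data.

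Members and lists were chosen with earlier results of these data known. Named genes were the members, called list genes (up to 8 per list and contrast, largest first), relatives of PLG, the 5 closest genes of PLG and HABP2, and chromosome neighbours. Over all genes, replicate numbers did not pair the arrays by the correlation of deviations from group means, except for sißCat-both minus sißCat-WT. There all 3 pairs exceeded 0.1 (0.116, 0.155 and 0.134). That contrast is used here only for values without calls and within the departure from additivity. The calls of the departure were therefore repeated with a replicate block, an alternative chosen after seeing the data. For the members, replicate 2 was the lowest PLG array and the highest HABP2 array in every group. Their SD and SE may thus hold a part shared by replicate number, which was not tested. Alternatives tried were other scalings, probe set averages, a filter on dim genes, other priors, array weights, the compared groups alone, all probe sets, a replicate block and leaving out each array. Figures were drawn with matplotlib 3.10.9.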

Additional observations from a re-analysis of the deposited data

Results flagged for a closer look

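The departure from additivity (sißCat-both minus sißCat-WT, less sißCat-mut minus siCtrl) was tested for the 37 list genes besides the members. The siRNA labels may differ in strength and off-target effects, which were not analysed. A departure cannot be told apart from such differences. It passed an adjusted p under 0.05 in limma in 14 of the 37 genes, 11 positive and 3 negative, where 16.4% of all genes passed. The departure was 1.84 ± 0.14 for F11 (2.70 when the full-length form was also targeted and 0.86 when it was not) and 1.83 ± 0.16 for HPR (SE, limma adjusted p = 3.31e-06 and 7.96e-06). It was 1.60 for HP, 1.26 for HRG and 1.01 for KNG1. For the fibrinogen chains FGG, FGA and FGB it was 0.74, 0.69 and 0.57, and for VTN and C2 it was 0.65 and 0.47. CPB2 had 0.73, with 0.02 when the full-length form was also targeted and -0.71 when it was not. Its knockdown groups overlapped one another, so this value rests on the siCtrl arrays. The negative values were -0.98 for TFPI, -0.72 for CFB and -0.54 for PROC. The difference for TFPI was -0.39 with the full-length form also targeted and 0.59 otherwise. With the replicate block 16 of the 37 genes were called, the same 14 among them, and these 14 also stayed called with any one array left out. The value for KNG1 was 0.52 with the mean of its probe sets. HRG stood near the array floor after sißCat-WT and siCtrl, where differences are compressed. PLG, PLGLA and HABP2 were not tested here.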

How the results depend on the processing

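No member difference changed sign under renewed quantile normalization, median centring or leaving out 1 array. Under those scalings none moved by more than the SD between replicates. With 3 arrays per group, leaving out 1 cannot move a difference by that much, so only the ranges are given for it. Averaging probe sets could not move the member differences, since each member has 1. With 1 array left out, the PLG difference ranged from -1.84 to -1.46 after sißCat-WT, 1.59 to 1.80 after sißCat-mut and 0.76 to 1.12 after sißCat-both, that of PLGLA from -1.94 to -1.57, 1.27 to 1.59 and 0.29 to 0.66, and that of HABP2 from 0.23 to 0.53, 4.53 to 4.84 and 5.34 to 5.68. With the replicate block, which leaves balanced differences as they are (PLG after sißCat-WT again -1.66), the counts of called list genes stayed within 1.5 times. Those counts also did so under the other alternatives, except the single call (F7) among the HABP2 substrates and related proteases after sißCat-WT, which was 0 with all probe sets in the fit and ranged from 0 to 1 with 1 array left out. Over all genes, the 1513 calls after sißCat-WT fell to 917 and 957 without sißCat-WT replicate 2 or 3. They fell to 1014, 950 and 1037 without siCtrl replicate 1, 2 or 3, and rose to 2087 with array weights. With all 53617 probe sets tested, 6866, 10274 and 8664 were called after sißCat-mut, after sißCat-both and in sißCat-mut minus sißCat-WT, against 3810, 5000 and 4611 genes. With Pearson correlation as the measure of likeness, 2 of the 5 genes closest to PLG, 3 of 5 for PLGLA and 1 of 5 for HABP2 (KNG1) stayed among the first 5. Signal near the array floor limits the PLG and PLGLA values after sißCat-WT and the HABP2 values after sißCat-WT and siCtrl.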

Other observations

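Kringle domains are shared by PLG, HABP2 and 15 other listed genes, of which 11 were measured. KREMEN1, a kringle-bearing receptor of Dickkopf Wnt inhibitors, fell by 1.13 ± 0.11 after sißCat-mut and by 1.09 ± 0.11 after sißCat-both (SE, n = 3 arrays a group, adjusted p by limma = 5.41e-06 and 3.95e-06), where PLG and HABP2 were higher. After sißCat-mut 3 of the 11 rose and 1 fell, where 12% of all genes rose and 13.6% fell. The 3 that rose, F2, F12 and HGFAC, are also counted among the plasma serine proteases. The counts after sißCat-both were also 3 and 1, where 15.5% of all genes rose and 18.1% fell.

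Of 17 hepatocyte transcription factors 8 were measured. PPARA, the fatty acid sensing nuclear receptor, fell by 0.60 after sißCat-WT and rose by 0.89 after sißCat-mut and 1.39 after sißCat-both (limma adjusted p = 0.00174, 2.09e-05 and 2.39e-07). ONECUT1, which acts in liver development, rose by 1.80 after sißCat-mut and 2.15 after sißCat-both, and after sißCat-WT its difference was 0.10. In all 6 of the 8 rose and 0 fell after sißCat-mut, where 12% of all genes rose and 13.6% fell. After sißCat-both 5 rose and 0 fell, where 15.5% of all genes rose and 18.1% fell.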
